A study of Equus caballus with 24 samples.

Results

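The erythroid genes of the bone marrow were followed through long bones and pituitary glands of Debao ponies (DPs), a breed of short stature, and Mongolian horses (MHs). The genes were chosen by symbol. Of 8 symbols, 6 matched a row in both deposited tables, which hold 24232 genes as read counts and 24248 genes as RPKM (reads scaled by gene length and library size). The 6 were HBB, ALAS2, SLC4A1, EPB42, ANK1 and TFRC. KLF1 and GATA1 were not matched by symbol and were not analysed here. The study collected the ends of long bones, labelled epiphysis, and the pituitary from 6 female DPs and 6 female MHs. In each breed 3 animals were juvenile and 3 were adult, under and over 3 years of age by the study's methods. The 8 groups of 3 libraries are named by breed, tissue and stage. DPLBJ and DPLBA are the long bones of juvenile and adult DPs, and MHLBJ and MHLBA those of MHs. DPPJ, DPPA, MHPJ and MHPA are the pituitary groups in the same order. All 24 libraries came from total RNA depleted of ribosomal RNA, from untreated slaughtered animals, and they are called library 1, 2 or 3 of their group. The labels do not say that a number marks the same animal in both tissues.

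Red cells are made in the marrow that fills the spaces of growing and adult bone. A dividing precursor takes up iron, makes haem, fills with haemoglobin and builds a membrane skeleton before it leaves the marrow, and horses are known for holding their reticulocytes in the marrow until they mature. HBB encodes the beta chain of haemoglobin, and ALAS2 the erythroid form of the first enzyme of haem synthesis. SLC4A1 (band 3) is the anion exchanger of the red cell membrane. EPB42 (protein 4.2) binds band 3, and ANK1 (ankyrin 1) ties it to the spectrin skeleton. TFRC is the transferrin receptor, through which iron enters; other dividing cells carry it too.

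The libraries held between 11616518 and 27007342 reads in the long bone and between 11433209 and 23573036 in the pituitary. Libraries of 1 group differed strongly from each other. In 5 of the 12 pituitary libraries (DPPA 1, all 3 of MHPJ and MHPA 1) the hormone genes GH, PRL and POMC summed to under 100 RPKM. These 3 genes were thus nearly absent there, and the 5 are called libraries without hormones below. Marker genes of the posterior lobe were not examined, so the part of the gland in these libraries was not tested. The erythroid genes likewise split the libraries of a single group, as described next, and results that rest on single libraries are also given without them. In a bulk library, fewer erythroid cells and less RNA per erythroid cell cannot be told apart.

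HBB (ENSECAG00000010020, 621 bases) was abundant in 3 of the 12 long bones. In DPLBJ its reads numbered 0, 79427 and 39999 in libraries 1, 2 and 3, which is 0, 6165 and 2786 RPKM. In DPLBA the reads numbered 0, 2694 and 3. Libraries 2 and 3 of DPLBJ and library 2 of DPLBA therefore stood far above the other libraries of their own groups. In MHLBJ there were 4, 134 and 59 reads of HBB and in MHLBA 19, 52 and 53. HBB ranked 9 and 21 by RPKM among all genes in DPLBJ 2 and 3, taking 0.502% (exact 95% interval 0.499 to 0.506%) and 0.213% (0.211 to 0.215%) of their reads. With 0 reads of HBB in DPLBJ 1, the exact 95% interval of its share reached up to 2.65e-05%, and a limit of 3 reads lay at 2.15e-05%. These intervals and the limit cover counting error only.

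ALAS2 (ENSECAG00000000068, 1899 bases) followed HBB. It had 0, 12568 and 10515 reads in DPLBJ and 0, 387 and 0 in DPLBA, against 0, 21 and 23 in MHLBJ and 5, 4 and 13 in MHLBA. SLC4A1 (ENSECAG00000000527, 3433 bases) had 2, 2842 and 5327 reads in DPLBJ and 1, 158 and 3 in DPLBA, and at most 23 in any MH long bone. EPB42 (ENSECAG00000022419, 2122 bases) had 2, 887 and 2512 reads in DPLBJ, 0, 39 and 1 in DPLBA, and at most 13 in any MH long bone. The same 3 libraries were thus high for the globin, the haem enzyme and both membrane proteins, and DPLBJ 1 was as low as the MH bones.

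ANK1 and TFRC behaved differently. ANK1 (ENSECAG00000013878, 5748 bases) was read in all 24 libraries. It stood at 0.73, 20.2 and 20.97 RPKM in DPLBJ and 0.74, 1.44 and 1.01 in DPLBA, against 0.27, 0.47 and 0.91 in MHLBJ and 0.04, 0.46 and 0.24 in MHLBA. TFRC (ENSECAG00000024267, 2304 bases) stood at 6.11, 5.77 and 63.41 RPKM in DPLBJ and lay between 1.63 and 9.98 in the other 9 long bones. TFRC was therefore high in a single library, DPLBJ 3, and DPLBJ 2, with the most HBB of all, had no more TFRC than a library without HBB.

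**Figure D1:**
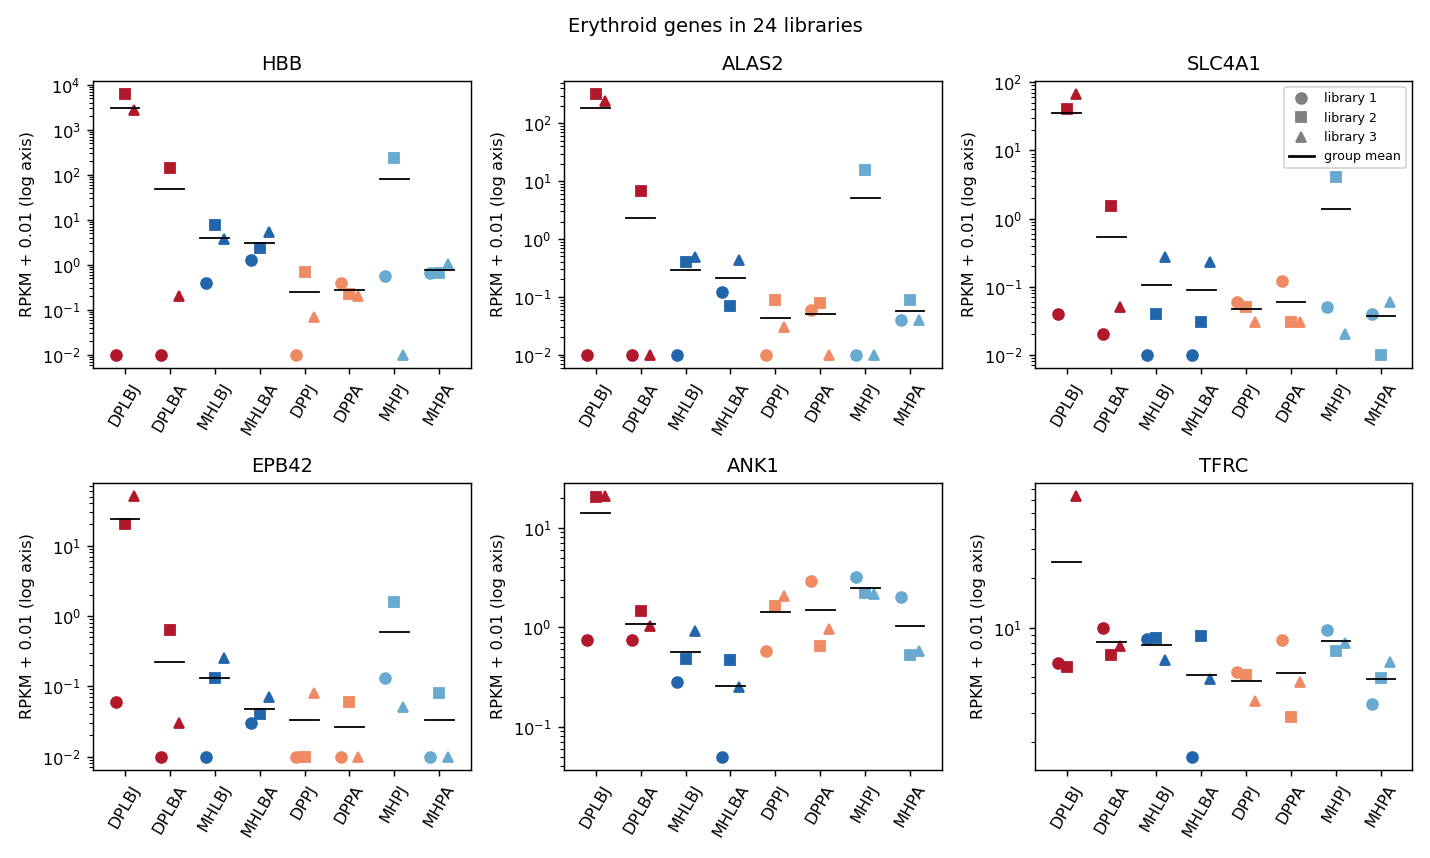
RPKM plus 0.01, on a log axis, of the 6 erythroid genes in each of the 24 libraries; colours mark breed and tissue, symbols the library number and black lines the group mean. HBB reached 6165 and 2786 RPKM in DPLBJ libraries 2 and 3 and 0 in library 1, and TFRC stood out only in DPLBJ library 3, at 63.41.

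Ordered by group mean RPKM, DPLBJ was the highest of the 8 groups for all 6 genes, at 2983 ± 3087 for HBB, 186 ± 166 for ALAS2, 35.7 ± 33.7 for SLC4A1, 23.8 ± 25.8 for EPB42, 14.0 ± 11.5 for ANK1 and 25.1 ± 33.2 for TFRC (mean ± SD, n = 3). The SD was nearly as large as the mean or larger in each case. MHPJ, a pituitary group, came second for all 6 genes by RPKM, and its libraries overlapped those of DPLBJ. For TFRC this rank held in RPKM only, since DPLBA (26.8) stood above MHPJ (25.6) in TMM-scaled CPM. These are read counts scaled by library size times a normalisation factor (TMM), without gene length. For HBB the order went on with DPLBA (48.0 ± 83.1), MHLBJ (3.86 ± 3.58), MHLBA (3.003 ± 2.098), MHPA (0.773 ± 0.214), DPPA (0.263 ± 0.110) and DPPJ (0.243 ± 0.371). Neighbouring groups overlapped in this order except MHLBA with MHPA and MHPA with DPPA. For the other 5 genes every group overlapped its neighbour above.

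The first comparison asked how juvenile DP long bones differ from juvenile MH long bones. Under the threshold of the study for differentially expressed genes (DEGs), an unadjusted P under 0.05 and over 2-fold change in edgeR, 5 of the 6 erythroid genes were higher in DPLBJ. Among all 13755 genes tested, 13.8% were DEGs and 8.33% were DEGs higher in DPLBJ. The log2 fold change was 9.76 (SE 2.98) for HBB, 9.44 (SE 2.64) for ALAS2, 8.56 (SE 2.29) for SLC4A1, 7.63 (SE 2.0002) for EPB42 and 4.82 (SE 1.17) for ANK1. TFRC, at 1.72 (SE 0.869, adjusted p = 0.350 in edgeR), did not pass. All 6 genes passed the low-count filter, SLC4A1 and EPB42 with at least 10 reads in only 1 MH library. None of the 6 kept its groups apart, because DPLBJ 1 overlapped MHLBJ, whereas 21.7% of all genes tested did. After Benjamini-Hochberg adjustment over all genes the edgeR p-values of the 5 DEGs lay between 0.150 and 0.189, and none of the 13755 genes passed 0.05, while 17.8% had an unadjusted P under 0.05. Without DPLBJ 1 all 6 genes were DEGs in edgeR, with adjusted p-values down to 0.00312 for ANK1. Without DPLBJ 2 and 3 a lone DP library remained, which had no replicate of its own and 0 reads of HBB and of ALAS2. TFRC then differed by -0.17 and ANK1 by 0.59, and neither was a DEG.

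Around these genes, 61 others of the erythroid programme had a row, and 45 were tested in juvenile bones. Of these, 21 rose in DPLBJ and 1 fell, with a median log2 difference of 1.16 against 0.05 over all genes tested. The membrane and skeleton list was among the most affected, with 5 of 8 tested genes higher. KEL, a blood group antigen, differed by 7.78 on the log2 scale, SPTB, a spectrin chain, by 5.68 and ADD2, an adducin of the skeleton, by 4.68. In haem synthesis 3 of 9 rose, among them FECH (1.58), the enzyme that inserts iron into haem. Of the erythroid transcription factors 3 of 6 rose, with NFE2 at 5.32 and E2F2, a cell cycle factor used by erythroblasts, at 5.30. In the list of red cell maturation 8 of 13 rose, including HEMGN (8.80), and SELENBP1 fell by 1.21. The iron and erythropoietin list moved least, with 2 of 9 higher.

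Of these 22 list genes, 9 kept the 3 DPLBJ libraries apart from the 3 MHLBJ libraries, 8 of them higher in DPLBJ. Libraries did not overlap for 21.7% of all 13755 genes tested, DEG or not. The share of all genes that were DEGs and also did not overlap was not counted. Those with the largest change in their list were TRIM58 (log2 difference 4.81, SE 0.902), a ubiquitin ligase of late erythroblasts, SLC25A37 (2.76, SE 0.830), the mitochondrial iron importer, PRDX2 (2.67, SE 0.538), a peroxidase of red cells, FECH (1.58, SE 0.592), XPO7 (1.35, SE 0.379), a nuclear export receptor, and the kinase PIM1 (1.14, SE 0.409). Adjusted p-values of these 6 in edgeR lay between 0.136 and 0.236. The list count, of DEGs in either direction, fell to 14 without DPLBJ 2 and to 12 without DPLBJ 3. It rose to 44 without DPLBJ 1.

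Neutrophil and cell cycle genes moved with the erythroid genes, and lymphocyte and macrophage genes mostly did not. All 10 neutrophil genes tested and all 10 cell cycle genes tested were DEGs higher in DPLBJ, against 8.33% of all genes tested. Of 8 B cell genes 1 was a DEG higher and 1 lower, and of 8 T cell genes 1 was lower. None of 8 macrophage genes was a DEG. The neutrophil sum was 108, 9960 and 1935 RPKM in DPLBJ 1, 2 and 3 and between 88.9 and 274 in MHLBJ. All 7 cartilage genes also rose, and all 6 adipocyte genes fell. The part of these cell types in the erythroid differences was not tested.

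In adult bones, DPLBA against MHLBA, only HBB, ANK1 and TFRC passed the low-count filter. ALAS2, SLC4A1 and EPB42 had too few reads outside DPLBA 2 to be tested. ANK1 was the 1 DEG of the 3, where 18.3% of the 14073 genes tested were DEGs and 2.24% also had an adjusted p under 0.05. It was higher in DPLBA by 2.18 on the log2 scale (SE 0.668, adjusted p = 0.112 in edgeR), and its groups did not overlap, as was the case for 29.9% of all genes. HBB differed by 4.13 (SE 2.19, adjusted p = 0.289 in edgeR) and TFRC by 0.71 (SE 0.425, adjusted p = 0.347). The HBB value rested on DPLBA 2 and turned to -4.78 without it, and HBB was then a DEG in the other direction with an adjusted p of 0.120 in edgeR. Without DPLBA 1, HBB was a DEG at 4.73, and without MHLBA 2, TFRC was one at 1.28.

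Of the 48 other erythroid genes tested in adult bones, 7 rose and 3 fell, with a median of 0.17, and these 10 were a share near the 18.3% of all genes tested. Of these 10, 6 were higher and 2 lower in DPLBA without overlap, where 29.9% of all genes tested did not overlap, DEG or not. Transcription factors that myeloid cells or megakaryocytes also use were among them. GFI1B differed by 5.36 (SE 0.902), E2F2 by 3.19 (SE 0.442) and NFE2 by 3.16 (SE 0.586), with adjusted p-values in edgeR of 0.0361, 0.0232 and 0.0422. HBQ1, a globin gene, differed by 5.26, TRIM10 by 3.61 and TRIM58 by 2.59. CPOX, a haem enzyme, was lower in DPLBA by 1.03 and EPB41, protein 4.1 of the membrane skeleton, by 1.22. In the same comparison 9 of 10 neutrophil genes were DEGs, and the neutrophil sum was between 1240 and 1986 RPKM in DPLBA against 36.6 to 315 in MHLBA. Also DEGs higher in DPLBA were 3 of 4 platelet and megakaryocyte genes, 5 of 8 macrophage genes and 7 of 10 cell cycle genes. So were 3 of 8 B cell genes and 1 of 8 T cell genes, and no gene of these lists was a DEG lower in DPLBA. MPO, the neutrophil peroxidase, had 3144, 3968 and 2647 reads in the 3 DPLBA libraries, close to each other, while HBB had 0, 2694 and 3. MPO was thus read at a like level in all 3 adult DP bones, whereas HBB, ALAS2, SLC4A1 and EPB42 were raised in 1 of them, and ANK1 lay above the MHLBA range in all 3.

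**Figure D2:**
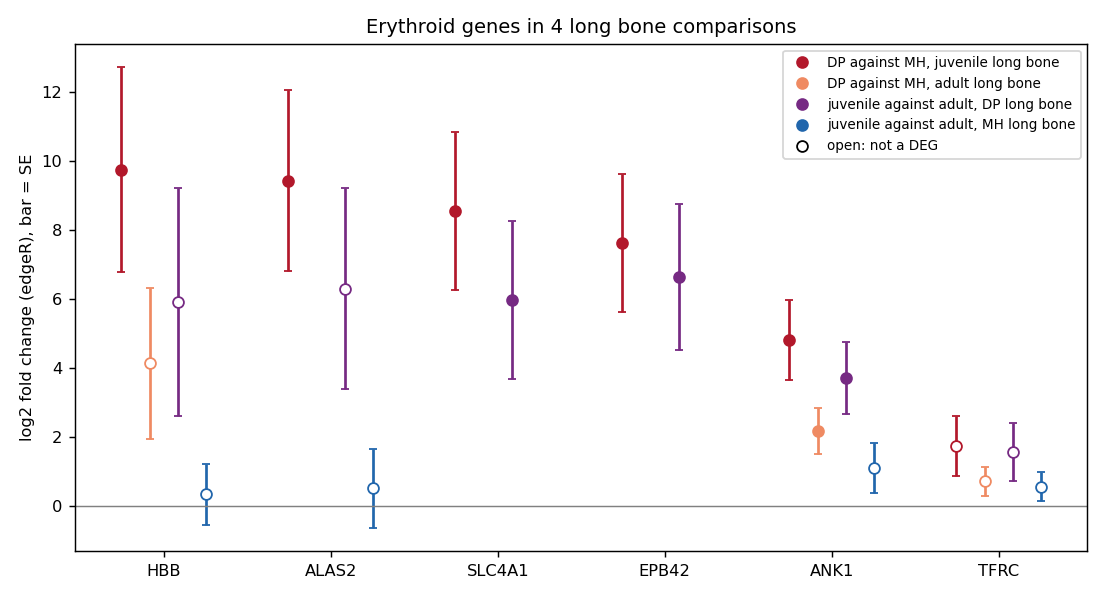
Log2 fold change (edgeR, bar = SE) of the 6 erythroid genes in 4 comparisons of long bones, 3 libraries against 3; filled points are DEGs and genes that failed the low-count filter are left out. HBB stood at 9.76 between juvenile DP and MH bones and at 0.33 between juvenile and adult MH bones.

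Juvenile and adult DP bones were compared next. Of the 6 genes 3 were DEGs higher in DPLBJ, where 3.14% of the 13866 genes tested were DEGs in either direction and 1.58% were higher. SLC4A1 differed by 5.97 (SE 2.29), EPB42 by 6.65 (SE 2.12) and ANK1 by 3.72 (SE 1.04) on the log2 scale. HBB (5.93, SE 3.31), ALAS2 (6.30, SE 2.91) and TFRC (1.56, SE 0.850) did not pass. The adjusted p in edgeR was 0.988 for all 6, no gene of the table passed 0.05 after adjustment, and 4.31% had an unadjusted P under 0.05. No gene of the 6 kept DPLBJ apart from DPLBA, since DPLBJ 1 was low, whereas 9.01% of all genes tested did. All 6 were DEGs without DPLBJ 1, 5 without DPLBA 2 and only 1 without DPLBA 3. Without DPLBJ 2 and 3 none was, in a fit with a lone juvenile library that had 0 reads of HBB and of ALAS2.

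Of 54 other erythroid genes tested between the DP stages, 27 rose in the juveniles and none fell, with a median of 1.53 against 0.03 over all genes. The list count, of DEGs in either direction, was 41 without DPLBJ 1 and 17 and 13 without DPLBJ 2 or 3. It was 11 and 12 without DPLBA 1 or 3. Membrane and skeleton genes were nearly all involved, with 10 of 11 higher, among them KEL at 6.10 and RHAG at 6.05. The chaperone of free alpha globin, AHSP, rose by 5.91 and EPOR, the erythropoietin receptor, by 2.88. Haem enzymes rose less, with 5 of 9 higher, FECH by 1.82, ALAD by 1.43 and CPOX by 1.14. These 3, with EPB41 (1.98), TMOD1 (1.11), TRIM58 (3.26), BPGM (1.30) and XPO7 (1.105), were the 8 DEGs whose libraries did not overlap. Of all genes tested, 9.01% did not overlap, DEG or not. No neutrophil gene was a DEG here, of 10 tested, whereas 1 of 10 cell cycle genes was.

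Between juvenile and adult MH bones no erythroid gene passed the threshold. HBB, ALAS2, ANK1 and TFRC were tested, and none of the 4 was a DEG in edgeR, against 2.91% of the 13899 genes tested. The log2 differences were 0.33 (SE 0.897) for HBB, 0.50 (SE 1.15) for ALAS2, 1.096 (SE 0.721) for ANK1 and 0.56 (SE 0.427) for TFRC. None of the 4 had an unadjusted P under 0.05, as 4.27% of all genes did, and DESeq2 also called none. Without MHLBA 2, TFRC was a DEG at 1.12. SLC4A1 and EPB42 were too low to be tested. None of 44 other erythroid genes was a DEG either, with a median of -0.04. HBB had at most 134 reads in these 6 bones and TFRC between 90 and 710.

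Whether the stage difference itself differed between the breeds was tested as an interaction. For HBB the difference between the breeds in the juvenile-minus-adult change was 5.57 (SE 3.44), for ALAS2 5.68 (SE 3.31), for SLC4A1 5.47 (SE 3.04), for EPB42 4.92 (SE 3.20), for ANK1 2.62 (SE 1.31) and for TFRC 1.00 (SE 1.05), all on the log2 scale. None of the 6 had an unadjusted P under 0.05 in edgeR, DESeq2 called 1, and 4.48% of the 14735 genes tested passed. Adjusted p-values in edgeR were 0.971 to 0.981. Without DPLBJ 1 the count was 5, without DPLBA 2 it was 4 and without MHLBA 1 it was 1. Of 56 other erythroid genes, 19 had a positive and 1 a negative interaction at an unadjusted P under 0.05, and the median was 1.68 against 0.07 over all genes. None of them passed after adjustment.

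DPLBJ 2 and 3 carried the erythroid genes in different proportions. HBB was 2.21 times higher in DPLBJ 2 by RPKM and ALAS2 was 1.33 times higher. SLC4A1 was 1.68 times and EPB42 2.54 times higher in DPLBJ 3, ANK1 was nearly equal at 20.2 and 20.97 RPKM, and TFRC was 10.99 times higher in DPLBJ 3. HBB and ALAS2 thus led in one bone and SLC4A1, EPB42 and TFRC in the other. Other haem, iron and globin genes were split between these libraries. SLC25A37 stood at 47.4 RPKM in DPLBJ 2 and 191.8 in DPLBJ 3, FECH at 23.5 and 92.8, and AHSP, the globin chaperone, at 109 and 151. In the other direction, HBQ1 stood at 521 and 228 RPKM, ALAD at 151 and 73.0, and NFE2 at 61.7 and 20.3. The haem genes UROD, at 45.5 and 28.2 RPKM, and ABCB10, at 28.8 and 19.6, and the second transferrin receptor TFR2, at 2.08 and 1.64, were likewise higher in DPLBJ 2. Among 57 other erythroid genes at 1 RPKM or more in both libraries, 38 were higher in DPLBJ 3, and the median ratio of DPLBJ 3 to DPLBJ 2 was 1.19, near the 1.16 over all 11686 such genes. These are single libraries of 1 group, so the ratios have no replicate check, and the genes set side by side were chosen after their values were seen.

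**Figure D3:**
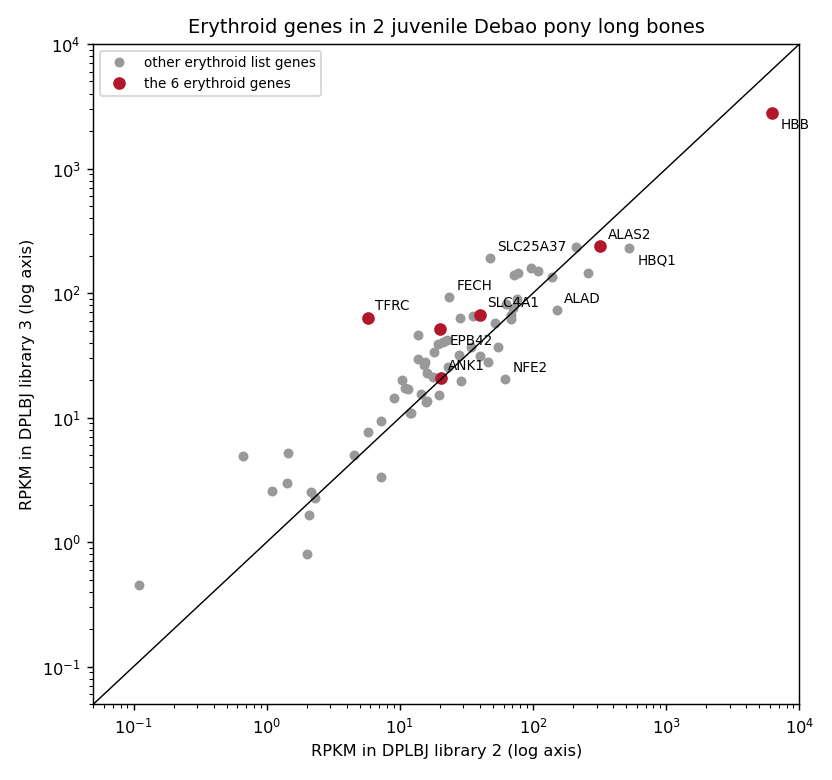
RPKM of the erythroid genes in DPLBJ library 2 (x axis) against library 3 (y axis), both log axes, for genes above 0 in both; red points are the 6 erythroid genes, grey points other genes of the erythroid lists and the line marks equal values. HBB lies below the line, at 6165 and 2786 RPKM, and TFRC above it, at 5.77 and 63.41.

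The neutrophil genes went with HBB in this pair, and cell cycle genes did not. MPO had 20161 reads in DPLBJ 2 and 4685 in DPLBJ 3, so that 3.94 and 8.54 HBB reads were counted per MPO read. The cell cycle sum was 455 and 443 RPKM. The summed RPKM of ALAS2, SLC4A1, EPB42, ANK1 and TFRC, relative to the neutrophil sum, was 0.0407 in DPLBJ 2, 0.229 in DPLBJ 3 and 0.0139 in DPLBA 2, and between 0.00444 and 0.159 in the other 9 long bones, where TFRC made up most of it. Relative to the B cell sum it was 10.0, 16.9 and 0.211 in the same 3 libraries and between 0.171 and 0.687 in the other 9. With HBB in the sum, the ratio to the neutrophil sum was 0.660 in DPLBJ 2 and 1.67 in DPLBJ 3 and at most 0.304 in the other 10 bones. Both DPLBJ libraries therefore stood above the rest against B cell genes and, when HBB was counted, against neutrophil genes.

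**Figure D4:**
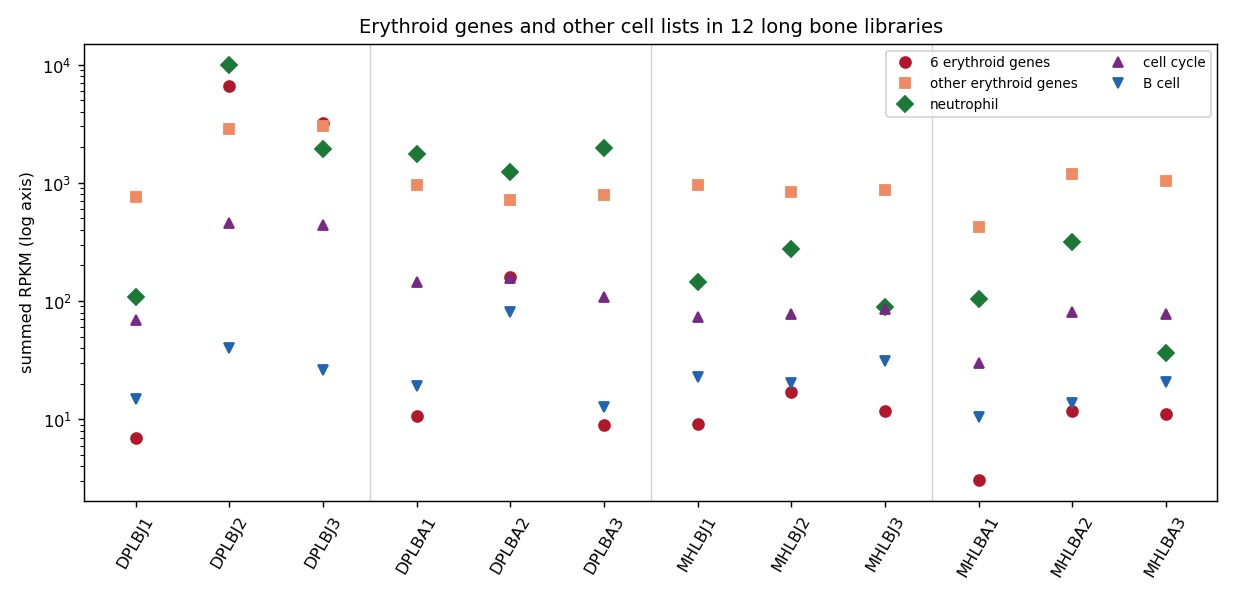
Summed RPKM, on a log axis, of the 6 erythroid genes, of 61 other erythroid genes and of the neutrophil, cell cycle and B cell lists in each of the 12 long bone libraries, with grey lines between groups. The neutrophil sum was high in all 3 DPLBA libraries, from 1240 to 1986, whereas the sum of the 6 erythroid genes, mostly HBB, was 161 in DPLBA 2 and 10.73 and 9.01 in DPLBA 1 and 3.

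DPLBA 2 held 5 of the 6 genes at a lower level than DPLBJ 2. Its reads, not scaled by library size, came to 3.39% of those in DPLBJ 2 for HBB, 3.08% for ALAS2 and 5.56% for SLC4A1. They came to 4.40% for EPB42 and 10.4% for ANK1, but to 171% for TFRC. DPLBA 2 held 21885168 reads in all and DPLBJ 2 held 15814874, so the percentages in this paragraph overstate the level in DPLBA 2. By RPKM, TFRC stood at 6.82 in DPLBA 2 and 5.77 in DPLBJ 2, and ANK1 at 1.44 and 20.2. HBB reads per ALAS2 read were 6.96 in DPLBA 2, 6.32 in DPLBJ 2 and 3.80 in DPLBJ 3. In this ratio DPLBA 2 lay nearer to DPLBJ 2. Other genes of the membrane and skeleton list ranged in DPLBA 2 from 0% of the DPLBJ 2 reads (ICAM4) to 53.3% (TMOD1). RHAG stood at 4.75% and KEL at 4.21%, but XK at 25.5% and SLC14A1 at 44.4%. Taking 4 times the long bone median as high, 5 of the 6 genes were high in DPLBJ 2, 6 in DPLBJ 3, 4 in DPLBA 2 and 0 in each of the other 9 bones. Of the 61 others, 29, 30 and 9 were high in these libraries and 4 or fewer in each of the rest. The share of all genes above this limit was not counted, so these counts have no background beside them.

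In the pituitary HBB, ALAS2, SLC4A1 and EPB42 marked a single library. HBB had 2394 reads in MHPJ 2, or 237 RPKM, and at most 12 in the other 11 pituitary libraries. ALAS2 had 473 reads there against at most 4, SLC4A1 227 against at most 11, and EPB42 54 against at most 6. MHPJ 2 was thus the only pituitary library with raised HBB, ALAS2, SLC4A1 and EPB42. ANK1 and TFRC, at 2.18 and 7.19 RPKM in it, lay within the range of the other pituitary libraries. By RPKM the HBB of MHPJ 2 exceeded that of every long bone but DPLBJ 2 and 3. MHPJ 2 held 5.06 HBB reads per ALAS2 read, between the values of DPLBJ 2 and 3, and 10.4 HBB reads per MPO read. Its neutrophil sum was 114 RPKM against 10.7 to 24.4 in the other 11, its cell cycle sum 201 against 20.9 to 59.6, and its adipocyte sum 110 against 1.82 to 16.3. GH, PRL and POMC summed to 9.77 RPKM in it. The part of bone, blood or other tissue in this library was not tested.

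Only ANK1 and TFRC passed the low-count filter in the 4 pituitary comparisons, since the other 4 genes were near 0 outside MHPJ 2. ANK1 stood at 0.57, 1.63 and 2.03 RPKM in DPPJ and at 3.15, 2.18 and 2.13 in MHPJ. TFRC stood at 5.38, 5.11 and 3.58 in DPPJ and at 9.63, 7.19 and 8.01 in MHPJ, with no overlap for either gene. TFRC was the 1 DEG of these 2, with a log2 difference of DPPJ minus MHPJ of -1.003 (SE 0.234, adjusted p = 0.0492 in edgeR), close to the 2-fold limit. This call was lost without DPPJ 3 (-0.82, adjusted p = 0.151 in edgeR), without MHPJ 1 (-0.98, adjusted p = 0.125) and without MHPJ 3 (-0.997, adjusted p = 0.107), and ANK1 was a DEG at -1.34 without DPPJ 3 (adjusted p = 0.232). Of the 14603 genes tested 20.3% were DEGs, 8.73% were DEGs with an adjusted p under 0.05 and 39.7% did not overlap. ANK1 differed by -1.01 (SE 0.462, adjusted p = 0.191 in edgeR). GH, PRL and POMC were nearly absent from all 3 MHPJ libraries and abundant in all 3 DPPJ libraries. Breed and this difference cannot be told apart in juveniles.

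Neither gene was a DEG in the other 3 pituitary comparisons. The background was 2.93% of genes between adult DPs and MHs, 7.74% between the MH stages and 3.56% between the DP stages. In adults ANK1 differed by 0.60 (SE 0.892) and TFRC by 0.32 (SE 0.454) on the log2 scale, and without DPPA 1 these turned to -0.43 and -0.27. Between MH stages TFRC differed by 0.99 (SE 0.242), just under 2-fold, with an unadjusted P of 0.00637 and an adjusted p of 0.351 in edgeR, and ANK1 by 1.35 (SE 0.694). ANK1 was a DEG without MHPA 1 (2.51), and TFRC without MHPJ 2 (1.06) or MHPA 3 (1.19). With all libraries, neither gene overlapped between these groups, as was the case for 17.6% of all genes, and 11.7% had an unadjusted P under 0.05. Between DP stages the values were -0.26 (SE 0.709) for ANK1 and -0.31 (SE 0.443) for TFRC. The last values turned in sign without DPPA 1, another library without hormones, to 0.78 for ANK1 and 0.28 for TFRC. ANK1 also turned, to 0.102, without DPPJ 1, a library with hormones. ANK1 stood at 2.90 RPKM in DPPA 1, 2 in MHPA 1 and 2.13 to 3.15 in MHPJ, the libraries without hormones, and at 0.51 to 2.03 in the 7 others.

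Across tissues, HBB, ALAS2, SLC4A1 and EPB42 were higher in the long bone and ANK1 was not. The average log2 difference over the 4 pairs of groups, long bone minus pituitary, was 4.79 (SE 1.35) for HBB, 4.11 (SE 1.34) for ALAS2, 2.83 (SE 1.098) for SLC4A1 and 3.05 (SE 1.07) for EPB42. Adjusted p-values of these 4 in edgeR were 0.00478, 0.0125, 0.0317 and 0.0189. Both tissues came from the same animals, but the labels do not tie the libraries by animal and the fit did not use it. An alternative fit took breed, stage and number together as a block, which pairs long bone and pituitary libraries by number. None of the 6 was a DEG in it, nor with limma on log2(RPKM + 1). These 4 of 6 were DEGs in the fit without a block, as were 38.9% of the 16131 genes tested, and 38.3% of all genes passed the adjusted and fold limits together. TFRC differed by 0.86 (SE 0.320, adjusted p = 0.0263 in edgeR), under 2-fold, and ANK1 by -0.26 (SE 0.447). The long bone median of HBB was 3.03 RPKM and the pituitary median 0.47, and the ranges overlapped for all 6 genes. Without DPLBJ 2 and 3, SLC4A1 differed by 0.35 and EPB42 by 0.91, HBB and ALAS2 had 0 reads in the remaining DPLBJ library, and the 1 DEG left was ANK1, at -1.29 with an adjusted p of 0.0225 in edgeR. SLC4A1 alone lost its call without MHLBJ 3 or MHLBA 3. Leaving out DPLBA 2 alone left DPLBA with 0 reads of ALAS2, and the count of DEGs was 0.

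Of 60 other erythroid genes tested between tissues, 17 were higher in the long bone and 5 lower, with a median of 0.45. These 22 were a smaller share than the 38.9% of all genes tested. Those higher included HBQ1 at 3.53, AHSP at 2.82 and KEL at 4.47. Those lower in the long bone were ADD2 (-1.68), SPTB (-1.72), DMTN (-1.48), XK (-1.51) and PRDX2 (-1.75). SPTB and ADD2 are skeleton proteins that neural cells make too. Membrane and skeleton genes were split in this way, 3 of 13 higher and 4 lower.

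How closely the 6 genes moved together was described over the 12 long bones, with no test, since the bones share 3 high libraries. Pearson's r of log2 TMM-scaled counts was 0.99 between HBB and ALAS2, 0.98 between SLC4A1 and EPB42 and 0.93 between HBB and SLC4A1. With DPLBJ 2 and 3 left out, HBB and ALAS2 still stood at 0.96, and SLC4A1 and EPB42 at 0.89. HBB and ANK1 went from 0.77 to 0.11, so their relation rested on those libraries. TFRC was related to HBB by 0.42, and by -0.15 without them.

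Among the genes whose pattern was most like the average of the 6, over 12 long bones, were HELLS (r = 0.98), AHSP (0.97), ATAD5 (0.97), TMCC2 (0.96), SLC22A16 (0.96), HEMGN (0.96), EPOR (0.96) and RHAG (0.96). Erythroid proteins among them were the chaperone AHSP, the Rh-associated RHAG, the nuclear HEMGN and the receptor EPOR. HELLS, a chromatin helicase, and ATAD5, which unloads the replication clamp, belong to dividing cells. Without DPLBJ 2 and 3 these values fell to between 0.67 (RHAG) and 0.85 (HELLS).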

How the data were processed

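Reads of 24 libraries had been counted per gene by the authors. The deposited tables hold raw counts and, separately, RPKM, which the authors scaled by gene length and library size. The labels' processing notes name bcl2fastq, TopHat2 and edgeR. The study's methods name another aligner and sequencer, so which tool made the counts is not stated, nor how reads shared by related globin genes were assigned. For the 6 genes, 52 RPKM values with at least 100 reads followed from the counts within 0.625%.

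Counts were tested with edgeR 4.0.16 (quasi-likelihood, TMM, filterByExpr with a minimum count of 10) over all genes, in R 4.3.3. Each comparison took only its own groups, and SE is the log2 fold change divided by the root of F. Adjusted p-values are Benjamini-Hochberg values over all genes tested. DEGs were called at an unadjusted P under 0.05 and over 2-fold, as in the study, and the interaction at P alone. Animals are separate, but p-values from 3 against 3 cover only the spread between these libraries; an exact permutation test of 3 against 3 cannot go below 0.1. Alternatives used DESeq2 1.42.0, limma 3.58.1 on log2(RPKM + 1) and log2(RPKM + 0.1) with a mean RPKM of at least 0.5, other scaling, no filter, the replicate number as a block, and each library left out. In the comparison between tissues, the block was breed, stage and number together. The fit was tested on simulated data. The erythroid genes and lists were chosen with earlier results of these data known. Named list genes were, per list and long bone comparison, the 3 with the largest change among DEGs whose libraries did not overlap; other list genes given as examples were chosen after their values were seen. Adult DP and MH pituitaries of the same number deviated together (r = 0.642, 0.531 and 0.350). They came from different animals, so the numbers do not pair them, and library 1 of both groups was nearly without hormones. The cause of the shared deviation was not tested. In all other pairs of groups r lay between -0.511 and 0.297. The most negative values were -0.511 and -0.339 between DP pituitary stages and -0.327 between MH long bone stages. Some genes of the lists are counted but not reported by name here.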

Additional observations from a re-analysis of the deposited data

Results flagged for a closer look

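Reads stood out in libraries of comparisons that could not test the gene, because it was low in the remaining libraries. In the pituitary library MHPJ 2, HBB had 2394 reads, ALAS2 473 and SLC4A1 227, each more than 10 times the highest other library of the groups compared. In the long bone library DPLBA 2, ALAS2 had 387 reads, SLC4A1 158 and EPB42 39, by the same measure. Between breeds, the change from adult to juvenile long bone differed at an unadjusted P under 0.05 in edgeR for 20 of 56 other erythroid genes, none of which passed after adjustment. Of all 14735 genes tested, 4.48% differed at this limit.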

How the results depend on the processing

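DPLBJ had the highest mean of all 6 genes in RPKM and in TMM-scaled counts, but lower ranks changed. For TFRC, DPLBA passed MHPJ and DPPJ passed MHPA in TMM-scaled counts. For ALAS2, DPPA (0.106) passed MHPA (0.099) in these counts, both near 0. The ratio of the 5 genes other than HBB to the neutrophil sum in DPLBJ 3, 0.229, became 16.9 against the B cell sum and 1.67 with HBB included. Counts of DEGs, taken in either direction, depended on the test. At an adjusted p under 0.05 with the same fold limit, 0 of the 6 genes remained in the juvenile, adult and DP stage comparisons of long bone, and the other erythroid genes called went from 22 to 0, from 10 to 3, from 27 to 0 and, for the interaction, from 20 to 0. With limma on log2(RPKM + 0.1), the count of the 6 was 3 in juvenile bones and 0 between DP stages, between juvenile pituitaries and between tissues, and that of the others 13, 6 in adults, 7 between DP stages and 4 for the interaction. With limma on log2(RPKM + 1), the count of the 6 was 0 in adult bones, juvenile pituitaries and between tissues, and that of the others 5 in adults, 13 between DP stages, 11 between tissues and 7 for the interaction. With no low-count filter, the 6 gave 6 between DP stages, 4 in juvenile pituitaries, 4 between MH pituitary stages and 1 for the interaction, and the others 38 in juvenile bones and 2 between MH stages. With all 12 libraries of the tissue, the others gave 36 in juvenile bones and 2 between MH stages, and the 6 gave 0 in juvenile pituitaries. DESeq2 gave 2 in juvenile pituitaries, 1 between MH pituitary stages and 1 for the interaction, DESeq2 size factors 1 between MH pituitary stages, and no TMM 0 in juvenile pituitaries.

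When a replicate block was fitted, the 6 gave 5 between DP stages, 2 between MH pituitary stages, 0 between tissues (adjusted p in edgeR of 0.206 for HBB, 0.105 for ALAS2, 0.301 for SLC4A1 and 0.193 for EPB42) and 3 for the interaction, and the others 14 in juvenile bones and 15 between DP stages; HBB turned to -1.79 in adult bones and -0.26 between MH stages, and ANK1 to 0.0633 between DP pituitary stages. The block left the counts of the 6 in adult pituitaries at 0.

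Leaving out 1 library in turn, counts of the 6 ranged from 5 to 6 in juvenile bones, 1 to 2 in adult bones, 0 to 1 between MH stages, 1 to 6 between DP stages, 0 to 1 between MH pituitary stages, 0 to 5 between tissues and 0 to 5 for the interaction. Counts of the others ranged from 12 to 44 in juvenile bones, 8 to 13 in adults, 0 to 3 between MH stages, 11 to 41 between DP stages, 19 to 27 between tissues and 14 to 37 for the interaction. The sign of a log2 difference turned with 1 library for TFRC without DPLBJ 3, which ranged from -0.16 to 2.17 in juvenile bones, from -0.35 to 2.05 between DP stages and from -0.93 to 1.45 for the interaction. HBB ranged from -4.78 (without DPLBA 2) to 4.73 in adult bones and from -0.65 (without MHLBJ 2) to 0.85 between MH stages. In juvenile pituitaries the count stayed at 1 but TFRC lost its call without DPPJ 3, MHPJ 1 or MHPJ 3, in a range from -1.12 to -0.82. In adult pituitaries without DPPA 1 ANK1 reached -0.43 and TFRC -0.27, in ranges up to 1.76 and 0.62. Between DP pituitary stages ANK1 ranged from -0.63 to 0.78 and TFRC from -0.61 to 0.28, both highest without DPPA 1. Between tissues HBB reached 6.83 without MHPJ 2, and ANK1 turned to 0.0262 without DPPA 1 and 0.0271 without MHPA 1. Under limma with a pseudocount of 0.1, HBB turned to -0.72 in adult bones and -0.15 between MH stages, ANK1 to 0.0388 between DP pituitary stages and TFRC to -0.19 for the interaction; with 1, ANK1 turned to 0.0069 there and 0.0030 between tissues and TFRC to -0.0284. Without DPLBJ 2 and 3, an alternative added after seeing the data, the 6 gave 1 in juvenile bones, 0 between DP stages and 1 between tissues, the others 3 and 10, and the values between DP stages were HBB -12.54, ALAS2 -9.75, SLC4A1 -3.98, EPB42 -1.99, ANK1 -0.50 and TFRC -0.34; in juvenile bones they were -8.74, -6.60, -1.35, -0.98 and -0.17 for all but ANK1. Without DPLBA 2 and MHPJ 2 as well, also added, the count between tissues was 1, HBB stood at -0.0194 and ANK1 at -1.39. These fits left an arm of 1 library, DPLBJ 1, assumed to vary like the other groups. It has 0 reads of HBB and ALAS2, so their fitted values depend on the prior count and are no measure of size. The causes were not tested.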
